A study of Mus musculus with 26 samples.

Results

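Livers of Alb-Cre:Hdac3-/- mice taken 50 days after successive partial hepatectomy (50d, 3 libraries) were compared with livers of the same genotype taken 7 days after it (7d, 4 libraries). The libraries were chosen by their titles alone, and they are 7 of the 26 in the series. Every mouse of both groups was labelled C57BL/6, aged 2 to 3 months and carrying the Hdac3 deletion, so the comparison is one of time after surgery within the mutant. The labels abbreviate the surgery as sPH, and they give neither the number nor the spacing of the operations, nor the hour of the day at which livers were collected. No liver without the deletion at 7 or 50 days was analysed here, so change over time cannot be told apart from change that needs the deletion. RNA of whole liver was sequenced, and levels are given as CPM, reads per library scaled to a common total and corrected between libraries.

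Partial hepatectomy removes part of the liver and drives the remaining hepatocytes back into the cell cycle until mass is restored. Hdac3 is a histone deacetylase that works as the enzyme of the NCoR and SMRT corepressor complexes, and the Alb promoter directs Cre to hepatocytes and their precursors. Bile duct cells arise from the same precursors and may lose the gene too, while blood and stromal cells of the liver keep it. In mouse liver the REV-ERB receptors, which repress the clock gene Arntl, are known to recruit this complex to DNA. The circadian clock itself is a loop in which ARNTL (also called BMAL1) pairs with CLOCK or NPAS2 and switches on the Per, Cry and REV-ERB genes, whose proteins then repress the loop. Output factors such as DBP, TEF and NFIL3 pass the rhythm on to metabolic genes.

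Library totals of the 7 samples ran from 8602526 to 10168812 counts, with 15369 to 16311 genes listed in each. Hdac3 was read at 37.2, 45.9, 51.7 and 47.2 CPM in 7d and at 45.5, 39.0 and 50.3 CPM in 50d, against 37.1, 34.2 and 32.1 CPM in wild type. A count over the whole gene does not show which exons the reads came from, and the labels do not name the deleted part, so these values do not check the deletion. The 4 hepatocyte markers Alb, Ttr, Apoa1 and Serpina1a summed to between 28000 and 83600 CPM in 7d and between 53100 and 57500 CPM in 50d. No marker of the other cell types looked at was at 0 in all 7 libraries, among those found in the tables. The neutrophil marker Ly6g, the B cell marker Ighm and the exocrine pancreas marker Pnlip were not found there and were not analysed here. All 7 libraries held Y-linked transcripts, whose sum over 4 genes was 54.0 to 81.4 CPM.

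The 4 libraries of 7d differed among themselves far more than the 3 of 50d. Spearman's correlation across genes was 0.976 between 7d replicates 1 and 2 and 0.972 between replicates 3 and 4, but 0.914 to 0.938 for the other pairs of 7d. Within 50d it was 0.973 to 0.989, and between a 7d and a 50d library 0.933 to 0.975. On a principal component analysis the first component, with 48.7% of the variance, placed 7d replicates 1 and 2 at -33.7 and -64.1 and replicates 3 and 4 at 57.6 and 55.9, with the 50d libraries between -12.6 and -0.4. The second component, with 18.4%, held 50d at -30 to -24.6 and 7d at 2.4 to 38.9. Of the beta-globin reads, Hbb-bs and Hbb-bt, the adult genes of the haplotype that C57BL/6 mice carry, took 48.1% in 7d replicate 4 and 0 to 2.8% in the other 6 libraries. These genes have near-identical copies, so the shares are uncertain. Nothing in the labels states whether each replicate is its own animal, and p-values then measure the spread between libraries only. Unless another fit is named, that spread was estimated over 17 libraries that include other groups, and not over 7d and 50d alone.

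The spread within 7d is visible in named genes. Alb, which encodes serum albumin, was at 45930, 79070, 16110 and 18330 CPM in 7d replicates 1 to 4 and at 36700, 40310 and 40040 CPM in 50d. Its 50d values lay inside the range of 7d (log2 fold change -0.03 ± 0.43 SE, adjusted p = 0.994 by edgeR's quasi-likelihood test). H19, an imprinted RNA that is high in fetal liver, was at 5.89, 0.745, 181 and 139 CPM in 7d and at 15.9, 19.5 and 11.6 CPM in 50d. Replicates 3 and 4 of 7d were thus above every 50d library and replicates 1 and 2 below all of them (log2 fold change -2.38 ± 1.46, adjusted p = 0.658). Glul, the glutamine synthetase of hepatocytes around the central vein, went the other way within 7d, at 1194, 1286, 374 and 396 CPM, and lay between at 819, 885 and 780 CPM in 50d. Mki67, a marker of cycling cells, was at 7.34, 3.73, 31.1 and 22.4 CPM in 7d and at 10.4, 13.0 and 13.3 CPM in 50d. The p53 target Cdkn1a, a brake on the cell cycle, was at 12.9, 18.4, 57.1 and 86.0 CPM in 7d and at 56.5, 35.1 and 56.5 CPM in 50d. None of these 5 genes passed an adjusted p of 0.05, the threshold used throughout.

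**Figure D1:**
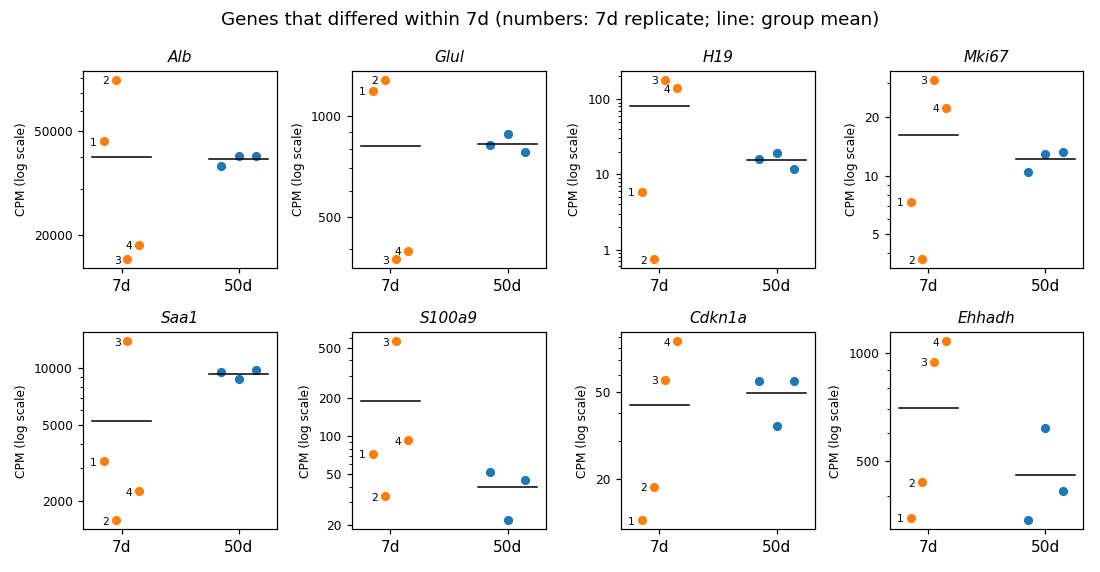
CPM on log axes for 8 genes in the 4 libraries of 7d, numbered by replicate, and the 3 libraries of 50d, with a line at each group mean. For Alb, Glul, H19, Mki67 and Cdkn1a the 7d libraries fall on either side of the 50d libraries, and for Saa1 and S100a9 replicate 3 stands highest.

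Of 13617 genes tested, 60 (0.441%) differed between 50d and 7d at an adjusted p under 0.05 by edgeR's quasi-likelihood test. Of these 39 (0.286%) were higher and 21 (0.154%) lower at 50 days, with log2 fold changes of 0.63 to 4.48 and -6.65 to -0.72, where the median over all genes was -0.02. At an unadjusted p under 0.05 there were 672 genes higher (4.94%) and 661 lower (4.85%). The 50d libraries lay above all 7d libraries for 651 genes (4.78%) and below all of them for 493 (3.62%), and the 60 genes were among these. DESeq2 called 119 higher (0.875%) and 113 lower (0.831%), and limma voom with quality weights 75 (0.551%) and 60 (0.441%). These shares of all genes also stand beside the list counts below where they are not repeated. Leaving out 1 library at a time left 15 to 47 genes higher and 3 to 31 lower, and the loss was largest without a 50d library. A set of 17 of the 60 genes stayed past the threshold in each of these 7 fits. All of these fits still held the wild type, 0-day and 21-day libraries. A fit to the libraries of 7d and 50d alone called 11 of the 60. Of the 17, only Arntl, Per3, Asap2, Ndrg1 and Slc11a2 were among them. The others of the 17 had adjusted p in that fit from 0.0524 (Ddc) to 0.0959 (Ngfr).

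**Figure D2:**
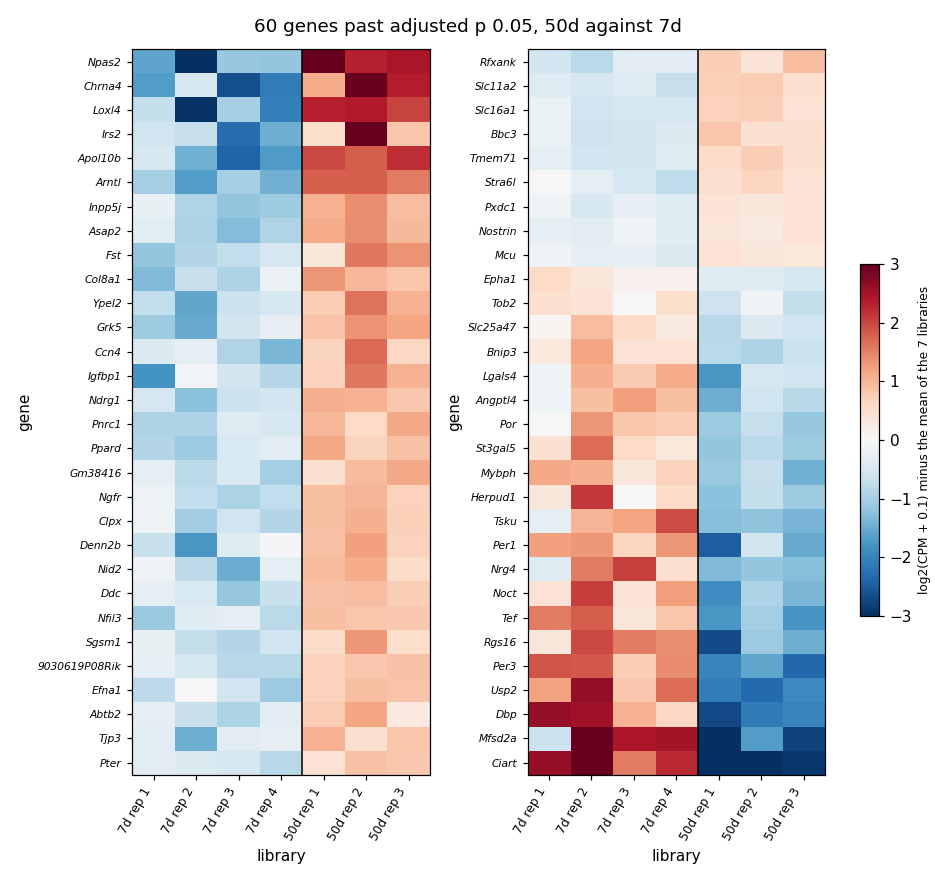
Heat map of the 60 genes past an adjusted p of 0.05, ordered by fold change, with 1 column per library of 7d and 50d. Colour is log2(CPM + 0.1) minus the mean of the 7 libraries for that gene; the 3 columns of 50d differ in sign from nearly all of 7d, while depth of colour varies within 7d for genes such as Mfsd2a, Nrg4 and Herpud1.

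Clock genes were the list with the most calls. Of 21 members, 3 rose and 6 fell, where 0.286% of all genes rose and 0.154% fell. The other 12 did not pass, and the median log2 fold change over the list was -1.06. The 3 that rose were Arntl, Npas2 and Nfil3, and the 6 that fell were Ciart, Dbp, Usp2, Per3, Tef and Per1. At an unadjusted p under 0.05, 4 members were higher and 14 lower. DESeq2 called 3 higher and 11 lower, and voom 2 and 7. Leaving out 1 library at a time, 2 to 3 members rose and 2 to 8 fell, with the fewest falls, 2, without 50d replicate 1 or without 50d replicate 3. The hour of collection is not in the labels, and its part in these differences was not tested.

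The promoters of 6 of the 9 genes are shown because each holds letters through which clock factors are known to act. Capitals mark the E-box CACGTG, bound by ARNTL with its partners, the D-box TTANGTAA, bound by DBP, TEF and NFIL3, and the ROR element TAGGTCA, bound by the ROR activators and REV-ERB repressors. On the opposite strand the ROR element reads TGACCTA, as in Nfil3. Both strands were searched over 250 bases before to 50 after each start in RefSeq on GRCm38.p6, and no motif overlapped another in the windows printed. All 9 genes had a window. The E-box stands in 7.15% of all 32851 windows, the D-box in 2.32% and the ROR element in 2.61%. Counted by gene, they stand in 8.09%, 2.72% and 2.97% of 27025 genes, and in 3, 1 and 2 of the 9. Each sequence reads 5′ to 3′ on the gene's own strand.
Arntl, chr7:113207261-113207560, + strand, 1 ROR element: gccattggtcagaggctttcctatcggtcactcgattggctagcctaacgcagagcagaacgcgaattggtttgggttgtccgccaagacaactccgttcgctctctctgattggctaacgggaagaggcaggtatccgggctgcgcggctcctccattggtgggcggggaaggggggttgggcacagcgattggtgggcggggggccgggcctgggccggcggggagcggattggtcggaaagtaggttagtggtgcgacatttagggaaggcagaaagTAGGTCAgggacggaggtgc
Nfil3, chr13:52980990-52981289, - strand, 1 ROR element: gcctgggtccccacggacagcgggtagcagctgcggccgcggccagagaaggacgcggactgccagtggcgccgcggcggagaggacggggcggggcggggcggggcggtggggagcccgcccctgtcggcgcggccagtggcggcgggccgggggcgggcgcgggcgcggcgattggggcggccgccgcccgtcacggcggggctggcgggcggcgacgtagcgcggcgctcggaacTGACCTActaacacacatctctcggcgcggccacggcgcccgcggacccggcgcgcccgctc
Per1, chr11:69098699-69098998, + strand, 1 E-box: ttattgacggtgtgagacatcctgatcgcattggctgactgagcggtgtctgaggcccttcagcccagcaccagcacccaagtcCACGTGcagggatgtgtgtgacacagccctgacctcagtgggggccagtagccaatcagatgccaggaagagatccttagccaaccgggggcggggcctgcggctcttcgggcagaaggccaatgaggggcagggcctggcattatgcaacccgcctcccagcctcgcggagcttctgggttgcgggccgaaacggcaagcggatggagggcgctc
Tef, chr15:81802423-81802722, + strand, 1 E-box: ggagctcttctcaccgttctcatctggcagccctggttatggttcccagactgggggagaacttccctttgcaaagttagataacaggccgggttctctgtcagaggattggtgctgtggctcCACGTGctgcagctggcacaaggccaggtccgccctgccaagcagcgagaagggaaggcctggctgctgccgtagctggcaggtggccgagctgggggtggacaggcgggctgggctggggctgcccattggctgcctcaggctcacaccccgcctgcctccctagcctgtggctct
Ciart, chr3:95882179-95882478, - strand, 3 E-boxes: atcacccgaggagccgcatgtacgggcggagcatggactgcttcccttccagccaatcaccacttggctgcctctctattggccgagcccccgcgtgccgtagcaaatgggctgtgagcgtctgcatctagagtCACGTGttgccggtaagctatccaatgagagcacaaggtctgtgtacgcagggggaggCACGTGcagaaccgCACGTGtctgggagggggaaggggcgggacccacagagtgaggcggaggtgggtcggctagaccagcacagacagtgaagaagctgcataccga
Per3, chr4:151044616-151044915, - strand, 2 D-boxes: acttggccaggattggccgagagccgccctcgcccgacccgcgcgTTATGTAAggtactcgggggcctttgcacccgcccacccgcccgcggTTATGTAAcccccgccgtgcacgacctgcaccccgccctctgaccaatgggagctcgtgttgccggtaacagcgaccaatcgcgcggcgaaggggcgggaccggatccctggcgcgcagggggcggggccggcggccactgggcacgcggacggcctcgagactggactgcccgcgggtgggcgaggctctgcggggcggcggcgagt
Both printed ROR elements belong to genes that rose, and the printed E-boxes and D-boxes to genes that fell. The genes had been chosen by their change and the windows by their letters, and a link between letters and direction was not tested. The windows of Npas2, Dbp and Usp2 hold none of these letters. A second window of Arntl and one of Per1 hold none either, and a second of Tef holds 1 E-box. A match is a description of the letters and was not tested as a site.

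On the positive arm of the loop, Arntl (Entrez gene 11865, chr7:113178471-113314126 on GRCm38) was at 4.03, 2.48, 4.03 and 2.92 CPM in 7d and at 28.4, 28.4 and 24.1 CPM in 50d. The groups were far apart, and the mean rose 7.96-fold (log2 fold change 2.99 ± 0.34, adjusted p = 0.00125). Npas2, a relative of Clock that also pairs with ARNTL, was at 0.413, 0, 0.605 and 0.583 CPM in 7d and at 12.8, 7.48 and 8.33 CPM in 50d. Its 7d level rests on 16 reads over 4 libraries against 286 reads over 3, and its log2 fold change was 4.48 ± 0.76 (adjusted p = 0.0134). Without 50d replicate 1 the adjusted p of Npas2 was 0.0642, whereas Arntl passed in each of the 7 fits. Clock itself, at 16.1, 16.5, 14.3 and 17.6 CPM in 7d and 20.5, 25.3 and 23.9 CPM in 50d, did not overlap between groups but did not pass (log2 fold change 0.53 ± 0.16, adjusted p = 0.218).

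On the negative arm, Per1 was at 65.1, 69.0, 43.7 and 69.9 CPM in 7d and at 4.89, 19 and 9.70 CPM in 50d. Every 50d library was below every 7d library, and Per1 fell by 2.47 on the log2 scale (SE 0.41, adjusted p = 0.00997). Its adjusted p was 0.0524 without 50d replicate 1 and 0.083 without 50d replicate 3, and without 50d replicate 2 its log2 fold change was -3.10. Per3 fell from 19.7, 19.1, 8.87 and 14.2 CPM in 7d to 1.25, 1.72 and 0.949 CPM in 50d, an 11.7-fold difference that held in all 7 fits (log2 fold change -3.55 ± 0.50, adjusted p = 0.00347). Ciart, whose protein CHRONO represses ARNTL and CLOCK, was at 14.1, 27.6, 6.75 and 10.8 CPM in 7d. In 50d it was at 0.0959, 0.101 and 0.211 CPM, which is 4 reads over 3 libraries against 536 over 4. Its log2 fold change of -6.65 ± 1.26 (adjusted p = 0.0266) depends on those 4 reads. Ciart lost the call without any one 50d library (adjusted p 0.135 to 0.16) and without 7d replicate 2 (0.0616).

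Other members of the negative arm did not pass in the edgeR fit of the 17 libraries. Per2 was at 19, 53.1, 19.1 and 66.1 CPM in 7d and at 6.91, 10.6 and 6.96 CPM in 50d, with no overlap (log2 fold change -2.27 ± 0.57, adjusted p = 0.105). Nr1d2, one of the REV-ERB genes, was at 59.9, 64.2, 28.2 and 24.9 CPM in 7d and at 6.33, 20.9 and 12.0 CPM in 50d (log2 fold change -1.76 ± 0.40, adjusted p = 0.0687). The other REV-ERB gene, Nr1d1, varied more within 7d, at 145, 50.4, 30.8 and 15.4 CPM, than between the groups. It was at 12.6, 59.1 and 29.1 CPM in 50d (log2 fold change -0.85, adjusted p = 0.739). Of the cryptochromes, Cry2 had a log2 fold change of -0.75 ± 0.27 (adjusted p = 0.327) and Cry1 one of 0.09 ± 0.38 (adjusted p = 0.975). Rora, whose protein activates Arntl, had a log2 fold change of 0.18 ± 0.16 (adjusted p = 0.802).

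Among output factors, Dbp was at 127, 119, 42.1 and 31.4 CPM in 7d and at 3.07, 4.65 and 5.06 CPM in 50d. It fell 18.8-fold (log2 fold change -4.23 ± 0.81, adjusted p = 0.0287), and the call was lost without any one 50d library (adjusted p 0.131 to 0.181) and without 7d replicate 2 (0.0636). Tef, a relative of Dbp, fell from 116, 139, 50.9 and 70.8 CPM to 11.7, 19.4 and 11.5 CPM (log2 fold change -2.73 ± 0.37, adjusted p = 0.00298) and kept the call in all 7 fits. Nfil3, whose protein represses at the same D-box letters, was at 17.8, 30.1, 32.0 and 22.2 CPM in 7d and at 72.9, 69.0 and 68.1 CPM in 50d. Nfil3 rose 2.75-fold (log2 fold change 1.46 ± 0.21, adjusted p = 0.00347) and also kept the call in all 7 fits. Hlf, the third member of the Dbp and Tef family, went from 58.5, 79.7, 21.3 and 37.6 CPM to 20.5, 26.5 and 23.7 CPM with overlap and did not pass (adjusted p = 0.151). Usp2, a deubiquitinase with a strong daily rhythm in mouse liver, fell from 43.3, 117, 32.6 and 59.7 CPM to 4.32, 3.64 and 4.85 CPM (log2 fold change -3.88 ± 0.67, adjusted p = 0.014). Without any one 50d library its adjusted p was 0.083 to 0.091.

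Levels in the mutant livers of 0 and 21 days give a wider view. For the 9 clock genes that passed, the 50d libraries lay outside the range of the 11 libraries of 0d, 7d and 21d, 3 above and 6 below. Over all genes tested, 230 (1.69%) lay above all 11 and 151 (1.11%) below. The 9 genes had been chosen by their difference from 7d, which is part of this range, so their count is a description and is not to be read against those shares. Arntl was at 8.99, 6.73 and 7.23 CPM in 0d and at 7.52, 5.79, 3.45 and 7.34 CPM in 21d, all under the 24.1 CPM of the lowest 50d library. Tef was at 69.0, 71.0 and 73.6 CPM in 0d and at 52.1, 66.7, 96.2 and 67.6 CPM in 21d, all over the 19.4 CPM of the highest 50d library.

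**Figure D3:**
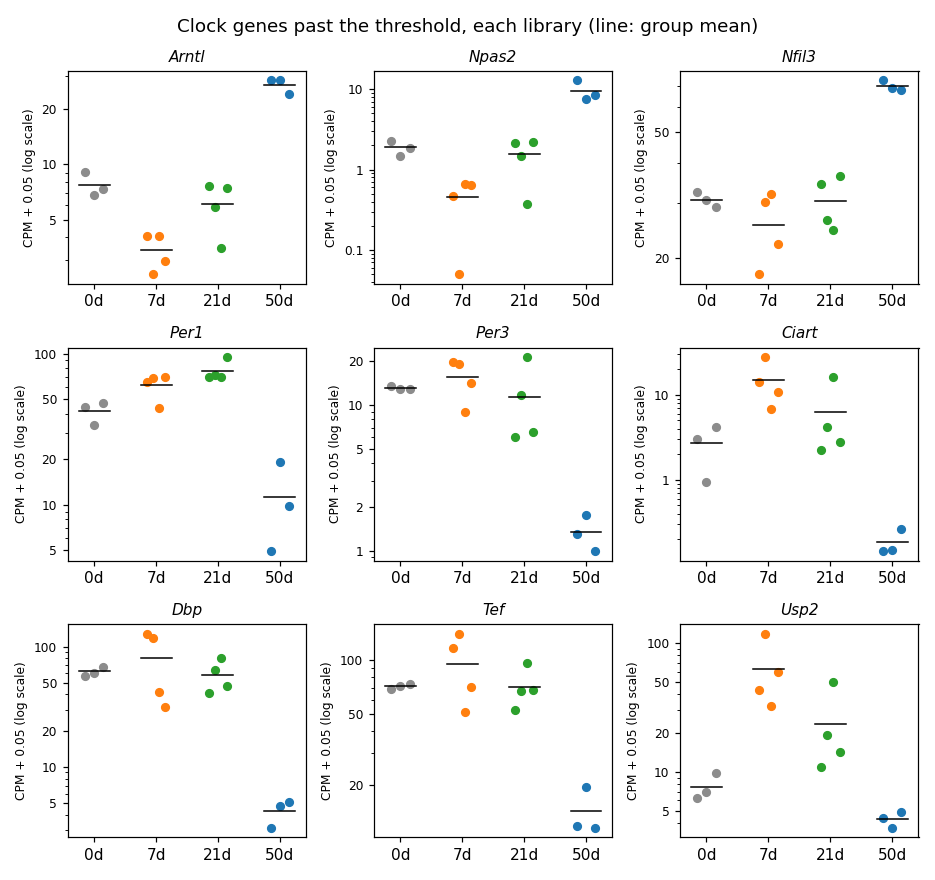
CPM + 0.05 on log axes for the 9 clock genes that passed, in every mutant library at 0, 7, 21 and 50 days, with a line at each group mean. The 3 libraries of 50d lie above all others for Arntl, Npas2 and Nfil3 and below all others for Per1, Per3, Ciart, Dbp, Tef and Usp2.

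Further genes that fell act in signalling, lipid transport and the endoplasmic reticulum. Rgs16, a brake on G-protein signalling, was at 6.2, 19.5, 14.6 and 12.9 CPM in 7d and at 0.671, 2.22 and 1.69 CPM in 50d. It fell 8.68-fold (log2 fold change -3.12 ± 0.43, adjusted p = 0.00347) and, with Per3 and Tef, was 1 of the 3 falls that kept the call without any single library. Mfsd2a, a transporter of lysophospholipids, was at 2.17, 50.5, 19 and 20 CPM in 7d and at 0.192, 1.01 and 0.422 CPM in 50d. Its log2 fold change was -5.37 ± 0.93 (adjusted p = 0.0145), and it changed to -6.19 without 50d replicate 2 and -4.65 without 7d replicate 2. Without any one 50d library its adjusted p was 0.0684 to 0.107.

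Noct, which encodes the rhythmic protein nocturnin, fell from 20.2, 62.6, 19.6 and 35.3 CPM to 4.03, 7.79 and 5.69 CPM (log2 fold change -2.56 ± 0.47, adjusted p = 0.0228). Nrg4, an ErbB4 ligand that is secreted, fell from 8.89, 34.3, 48.4 and 16.6 CPM to 4.60, 5.16 and 4.74 CPM (log2 fold change -2.48 ± 0.49, adjusted p = 0.0344). The spread within 7d was several times that within 50d for each. Herpud1, which acts in degradation of misfolded proteins at the endoplasmic reticulum, was at 229, 786, 179 and 273 CPM in 7d and at 78.0, 110 and 87.1 CPM in 50d. Its log2 fold change was -2.0 ± 0.40 (adjusted p = 0.0361), and -1.32 without 7d replicate 2, the library with the highest level. Noct and Herpud1 lost the call without any one 50d library (adjusted p 0.0684 to 0.153 and 0.101 to 0.203), as did Nrg4 (0.135 to 0.181), which also lost it without 7d replicate 2 (0.0739) or 7d replicate 3 (0.0551).

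Por, the electron donor of liver cytochromes P450, was at 448, 1112, 791 and 750 CPM in 7d and at 208, 273 and 203 CPM in 50d. It fell by 1.77 on the log2 scale (SE 0.37, adjusted p = 0.0444). St3gal5, the synthase of the ganglioside GM3, fell by 1.88 (SE 0.38, adjusted p = 0.0397), from 125 to 318 CPM down to 44.8 to 56.7 CPM. Tsku, which encodes a protein secreted by the liver, fell by 2.46 (SE 0.52, adjusted p = 0.0465), from 110 to 514 CPM down to 50.6 to 57.1 CPM. Mybph, related to myosin-binding protein C, fell by 1.95 (SE 0.40, adjusted p = 0.0412), from 3.83 to 6.72 CPM down to 1.05 to 1.82 CPM. Each of these 4 calls was lost without any one 50d library (adjusted p up to 0.22), and also without 7d replicate 2 (0.0739 to 0.104). Mybph was lost without 7d replicate 1 (0.0634) or 4 (0.0615) as well, and Por and Tsku without 7d replicate 3 (0.0591 for each) or 4 (0.0759 and 0.105). Angptl4, an inhibitor of lipoprotein lipase singled out after its values were seen, fell from 60.3, 122, 153 and 122 CPM to 23.8, 43.1 and 36.9 CPM (log2 fold change -1.73 ± 0.27, adjusted p = 0.00725). Among fits leaving out 1 library, Angptl4 lost the call only without 50d replicate 1 (0.062). It was also lost in the edgeR fits to the 7 libraries (0.164) and to all 26 (0.0651).

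Among rises, 3 transcription regulators and 1 kinase kept the call in all 7 fits, as Arntl and Nfil3 did. Ppard, a nuclear receptor for fatty acids, was at 12.9, 11.2, 17.4 and 19.3 CPM in 7d and at 53.8, 38.2 and 44.0 CPM in 50d. It rose 2.97-fold (log2 fold change 1.57 ± 0.18, adjusted p = 0.00125). Pnrc1, which encodes a coactivator of nuclear receptors, was at 71.4, 72.4, 104 and 98.4 CPM in 7d and at 271, 208 and 300 CPM in 50d. It rose 3-fold (log2 fold change 1.58 ± 0.20, adjusted p = 0.00148), with 50d far above the range of 7d. Rfxank, a subunit of the RFX complex that activates MHC class II genes, rose from 26, 22.2, 30.9 and 30.4 CPM to 64.9, 50.6 and 73.3 CPM (log2 fold change 1.20 ± 0.18, adjusted p = 0.00392). H2-Aa, an MHC class II gene, was at 188, 53.9, 271 and 306 CPM in 7d and 224, 103 and 188 CPM in 50d (adjusted p = 0.911). Grk5, a kinase of G-protein-coupled receptors, rose from 2.79, 1.99, 4.03 and 4.96 CPM to 10.7, 15.1 and 13.5 CPM (log2 fold change 1.91 ± 0.30, adjusted p = 0.0063).

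Membrane carriers and enzymes also rose and kept the call in all 7 fits. Slc11a2, the transporter DMT1 that carries iron and other divalent metals, was at 47.8, 43.8, 48.0 and 38.5 CPM in 7d and at 102, 106 and 88.2 CPM in 50d. It rose 2.21-fold (log2 fold change 1.15 ± 0.16, adjusted p = 0.00357), and it was the only 1 of 16 iron genes to pass by edgeR, DESeq2 or voom. At an unadjusted p under 0.05, 2 iron genes were higher and 2 lower, against 4.94% and 4.85% of all genes. Steap4, Slc40a1 and Hamp, the gene of hepcidin, had adjusted p of 0.387, 0.404 and 0.852. Slc16a1, a carrier of lactate and ketone bodies, rose from 44.1, 33.4, 34.9 and 35.4 CPM to 81.0, 82.2 and 68.2 CPM (log2 fold change 1.06 ± 0.14, adjusted p = 0.00279). Ddc, the decarboxylase of aromatic amino acids, rose from 31.0, 27.8, 17.3 and 24.0 CPM to 70.7, 72.4 and 64.0 CPM (log2 fold change 1.46 ± 0.23, adjusted p = 0.00826). Slc16a1, Ddc, Rfxank and Pter were singled out after their values were seen, because they kept the call in all 7 fits. Pter, a gene related to bacterial phosphotriesterases, had a log2 fold change of 1.24 ± 0.18 (adjusted p = 0.00358).

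The remaining rises that kept the call in all 7 fits were Ndrg1, Ngfr, Ypel2 and Asap2. Ndrg1, a stress-responsive gene, was at 23.8, 14.4, 21.7 and 22.7 CPM in 7d and at 72.4, 70.6 and 60 CPM in 50d (log2 fold change 1.71 ± 0.25, adjusted p = 0.00357). Ngfr, the p75 neurotrophin receptor, was at 3.41, 2.23, 1.91 and 2.23 CPM in 7d and at 7.19, 7.79 and 6.22 CPM in 50d (log2 fold change 1.52 ± 0.24, adjusted p = 0.00684). For Ypel2 the 7d values of 6.95 to 14.6 CPM stood against 34.8 to 63.8 CPM (log2 fold change 1.99 ± 0.24, adjusted p = 0.00125). Asap2, which acts on Arf GTPases, went from 4.53 to 9.09 CPM up to 22.4 to 30.2 CPM (log2 fold change 2.01 ± 0.29, adjusted p = 0.00347). The mean levels of Ndrg1, Ngfr, Ddc and Ypel2 at 0 days were 62.6, 7.71, 84.0 and 39.5 CPM, near those of 50d, at 67.7, 7.07, 69.0 and 47.0 CPM. Of the 39 genes that rose, 28 were at 50 days above every library of 0d, 7d and 21d, and of the 21 that fell 18 were below every one, where the 7d part of that follows from the choice of genes.

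Chrna4, Loxl4, Apol10b and Fst rose as well, and each lost the call without at least 1 library. Chrna4, a subunit of nicotinic acetylcholine receptors, was at 1.45, 3.48, 0.705 and 1.07 CPM in 7d and at 10.7, 51.9 and 25.4 CPM in 50d (log2 fold change 4.16 ± 0.72, adjusted p = 0.0147). Without 50d replicate 2 its log2 fold change was 3.45 and its adjusted p 0.0842, and without 7d replicate 2 its log2 fold change was 4.75. The call was also lost without 7d replicate 4 (adjusted p = 0.0521). Loxl4, an enzyme that cross-links collagen and elastin, was at 3.31, 0.621, 2.72 and 1.26 CPM in 7d and at an even 27.9, 28.9 and 22.6 CPM in 50d. It rose 13.1-fold (log2 fold change 3.72 ± 0.70, adjusted p = 0.0254), but lost the call without any one 50d library (adjusted p 0.083 to 0.091) or without 7d replicate 2 (0.0739) or 4 (0.0779). Apol10b, of the apolipoprotein L family, rose from 4.44, 2.23, 1.11 and 1.85 CPM to 25.1, 22.4 and 29.5 CPM (log2 fold change 3.41 ± 0.63, adjusted p = 0.0245), and its call was likewise lost without any one 50d library (0.0692 to 0.104) or without 7d replicate 2 (0.0616) or 4 (0.0632). Fst, whose protein follistatin binds and inhibits activins, rose from 4.86, 5.96, 6.55 and 7.68 CPM to 14.1, 33.0 and 28.0 CPM (log2 fold change 2.0 ± 0.32, adjusted p = 0.00838), with 0.0684 without 50d replicate 2 and 0.0519 without 50d replicate 3.

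Of 17 genes of glucose and glycogen metabolism, Irs2 and Igfbp1 rose, none fell and the median log2 fold change was -0.004, where 0.286% of all genes rose and 0.154% fell. At an unadjusted p under 0.05, 4 were higher and 5 lower, DESeq2 called 2 higher and 3 lower, and voom 1 and 1. Without 1 library at a time 0 to 1 rose, and none fell except without 7d replicate 3, where 2 did. Irs2, an adaptor of the insulin receptor, was at 1.86, 1.74, 0.504 and 0.972 CPM in 7d and at 4.12, 37.1 and 5.17 CPM in 50d. The log2 fold change of 3.61 ± 0.75 (adjusted p = 0.0433) rests on 50d replicate 2, without which it was 1.87 with an adjusted p of 0.321. The call was also lost without any one 7d library (adjusted p 0.058 to 0.112). Igfbp1, a secreted binding protein of insulin-like growth factors, was at 32.9, 108, 78.0 and 62.9 CPM in 7d and at 184, 343 and 237 CPM in 50d (log2 fold change 1.85 ± 0.39, adjusted p = 0.0454). It lost the call without any one 50d library (0.0867 to 0.187) or without 7d replicate 1 (0.0649), 3 (0.07) or 4 (0.111). At 0 days it stood higher still, at a mean of 480.5 ± 9.93 CPM (SD, n = 3). G6pc, the last enzyme of glucose release, was at 93.5, 225, 16.6 and 36.0 CPM in 7d and at 158, 346 and 269 CPM in 50d and did not pass (log2 fold change 1.48 ± 0.64, adjusted p = 0.461). Without 7d replicate 2, the highest of 7d, its log2 fold change was 2.4, also without passing.

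Cholesterol synthesis genes leaned upward without a call. All 24 members had a fold change above 0, with a median of 0.82 on the log2 scale, 15 were higher at an unadjusted p under 0.05 (4.94% of all genes), and in 14 the 50d libraries lay above all of 7d (4.78% of all genes). None passed by edgeR, while DESeq2 called 5 and voom 6, against 0.875% and 0.551% of all genes. The members named here were chosen after their values were seen. Hmgcs1, which makes HMG-CoA for the pathway, was at 304, 294, 412 and 405 CPM in 7d and at 982, 1099 and 1003 CPM in 50d (log2 fold change 1.54 ± 0.36, adjusted p = 0.0765). Dhcr7, which makes cholesterol in the last step, was at 104, 123, 73.8 and 65.3 CPM in 7d and at 224, 236 and 235 CPM in 50d (log2 fold change 1.34 ± 0.30, adjusted p = 0.0606). Their groups stood well apart, with 50d almost even. Without 1 library at a time, 0 to 2 members passed. Of the 21 lipogenesis genes none passed by edgeR, 3 were higher and 2 lower at an unadjusted p under 0.05, DESeq2 called 2 higher and 1 lower and voom 1 higher. Acly, which makes cytosolic acetyl-CoA, had a log2 fold change of 1.26 ± 0.29 (adjusted p = 0.0687), and Fasn, the fatty acid synthase, varied from 221 to 1161 CPM in 7d and from 521 to 1302 CPM in 50d (adjusted p = 0.922).

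Fatty acid oxidation and ketone genes leaned downward, also without a call. The fold change was below 0 in 25 of 26 members, with a median of -0.41, and 10 were lower and 1 higher at an unadjusted p under 0.05, against 4.85% and 4.94% of all genes. In 8 the 50d libraries lay below all of 7d (3.62% of all genes), and DESeq2 called 3 lower and voom 1, against 0.831% and 0.441% of all genes. Cpt1a, the gate for long-chain fatty acids into mitochondria, was at 451, 592, 324 and 304 CPM in 7d and at 169, 250 and 166 CPM in 50d (log2 fold change -1.10 ± 0.24, adjusted p = 0.0572). Its groups did not overlap, whereas Ehhadh, of peroxisomal oxidation, ran from 348 to 1083 CPM within 7d and was at 342, 619 and 412 CPM in 50d. Of 20 lipid droplet and fat uptake genes tested, none passed by edgeR, 7 were lower and 0 higher at an unadjusted p under 0.05, and DESeq2 called 2 lower and voom 1. Pnpla2, the lipase of lipid droplets, was at 138, 171, 168 and 201 CPM in 7d and at 97.5, 85.7 and 98.5 CPM in 50d (log2 fold change -0.85 ± 0.19, adjusted p = 0.0592). Without 1 library at a time, 0 to 2 droplet genes and 0 to 1 oxidation genes fell.

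**Figure D4:**
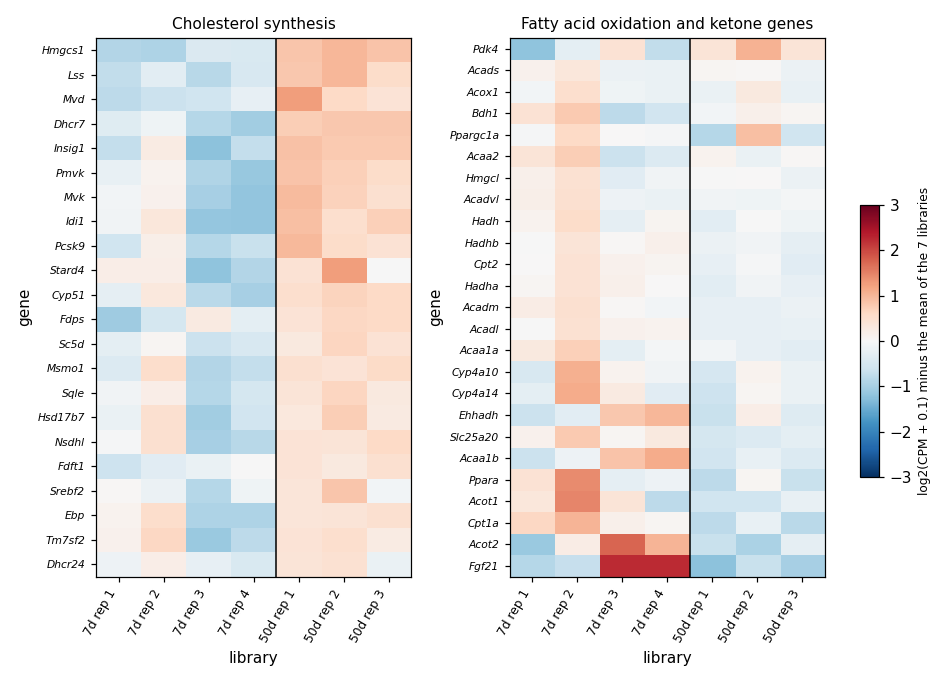
Heat maps of 22 of the 24 cholesterol synthesis genes and 25 of the 26 fatty acid oxidation and ketone genes, with 1 column per library and colour as log2(CPM + 0.1) minus the mean of the 7 libraries. The 50d columns are mostly above the mean on the left and mostly below it on the right, and the 7d columns differ from one another, as in Fgf21.

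Bile acid genes did not pass. Cyp7a1, the enzyme of the first and limiting step from cholesterol to bile acids, was at 305, 504, 155 and 118 CPM in 7d and at 62.4, 40.4 and 61.1 CPM in 50d. The groups did not overlap, and 7d spread by 176 CPM (SD, n = 4) against 12.3 CPM (SD, n = 3) in 50d (log2 fold change -2.31 ± 0.55, adjusted p = 0.0856). Abcb11, the bile salt export pump, was at 282, 256, 163 and 133 CPM in 7d and at 289, 503 and 294 CPM in 50d (log2 fold change 0.80 ± 0.27, adjusted p = 0.291). Of 21 members tested 2 were higher and 3 lower at an unadjusted p under 0.05, against 4.94% and 4.85% of all genes. DESeq2 called 1 lower (0.831% of all genes) and voom none. Among 37 cytochrome P450 and transferase genes the fold change was below 0 in 32, with a median of -0.45. None was called by edgeR, DESeq2 or voom. At an unadjusted p under 0.05, 0 were higher and 3 lower, against 4.94% and 4.85% of all genes.

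The cell cycle and growth lists showed no call by edgeR. Of 32 S phase genes 0 were higher and 4 lower at an unadjusted p under 0.05, against 4.94% and 4.85% of all genes. DESeq2 called 1 of them lower (0.831% of all genes) and voom none. Of 32 G2 and mitosis genes none passed at an unadjusted p under 0.05 or by DESeq2 or voom. The S phase and the G2 and mitosis medians, -0.002 and -0.10, lay near that of all genes. Leaving out 1 library at a time, they ran from -0.178 to 0.185 and from -0.388 to 0.204, with both highest without 7d replicate 3. Myc was at 14.6, 22.7, 52.8 and 39.3 CPM in 7d and at 13.0, 13.0 and 16.1 CPM in 50d (log2 fold change -1.20 ± 0.46, adjusted p = 0.377), and Ccnd1, the cyclin of early cell cycle entry, at 41.6 to 83.2 CPM in 7d and 53.4 to 60.5 CPM in 50d (adjusted p = 0.944). Of 20 p53 targets, Bbc3 rose and none fell, where 0.286% of all genes rose. At an unadjusted p under 0.05, 3 were higher and 1 lower, and DESeq2 called 2 higher and voom 1. Bbc3, whose protein PUMA promotes cell death, was at 9.61, 7.08, 7.46 and 8.26 CPM in 7d and at 19.6, 15 and 15.5 CPM in 50d (log2 fold change 1.04 ± 0.20, adjusted p = 0.0268). It lost the call without any one 50d library (adjusted p 0.0746 to 0.181) or without 7d replicate 2 (0.0739), 3 (0.0552) or 4 (0.0668). Cdkn1a and Mdm2, targets of the same factor, had log2 fold changes of 0.18 ± 0.71 and -0.02 ± 0.11.

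Fetal, tumor and biliary markers did not pass by edgeR. Afp, the fetal liver protein used as a tumor marker, was at 1.49 to 1.75 CPM in 7d and 1.69 to 2.01 CPM in 50d (adjusted p = 0.885). Igf2 was at 0.372 to 3.11 CPM and 0.48 to 1.01 CPM, and Gpc3, a surface glypican of liver tumors, at 0 to 2.42 CPM and 0.192 to 0.404 CPM. Of 18 members tested 1 was higher and 0 lower at an unadjusted p under 0.05, and DESeq2 and voom called none. Sox9, a regulator of biliary and progenitor cells, was at 12.0, 9.81, 14.3 and 22.6 CPM in 7d and at 40.6, 23.1 and 35.9 CPM in 50d (log2 fold change 1.17 ± 0.29, adjusted p = 0.0985). The duct markers Krt19 and Epcam had log2 fold changes of 0.18 ± 0.52 and 0.32 ± 0.56, and Spp1 one of 1.07 ± 0.37 (adjusted p = 0.313). Over the 21 biliary genes tested 4 were higher and 0 lower at an unadjusted p under 0.05, against 4.94% and 4.85% of all genes. DESeq2 and voom called 1 each as higher, against 0.875% and 0.551% of all genes. The sum of 4 duct markers was 11.2 to 80.8 CPM in 7d and 40.8 to 65.8 CPM in 50d.

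Neutrophil genes had the lowest median of all lists, -2.05 over 14 tested, with no call by edgeR or voom. At an unadjusted p under 0.05, 10 were lower, against 4.85% of all genes. DESeq2 called 2 lower, against 0.831% of all genes. Without 7d replicate 3 the median was -0.54. S100a8, a calcium-binding protein abundant in neutrophils, was at 29.0, 14.5, 282 and 50.8 CPM in 7d and at 22.2, 7.58 and 21.7 CPM in 50d (log2 fold change -2.45 ± 0.85, adjusted p = 0.298). Replicate 3 of 7d was thus several times above the rest. The summed neutrophil markers showed the same, at 149, 56.2, 1290 and 227 CPM in 7d and 103, 37.6 and 83.1 CPM in 50d, with overlap between groups. In bulk RNA, fewer cells of a type and less RNA per cell cannot be told apart. Saa1, the main acute phase gene, was at 3234, 1579, 13940 and 2250 CPM in 7d, again highest in replicate 3, and at 9625, 8802 and 9757 CPM in 50d (log2 fold change 0.84 ± 0.80, adjusted p = 0.814), and Saa1 shares reads with its near-identical copy Saa2. Without 7d replicate 3 the log2 fold change of Saa1 was 2.0, also without passing. Orm1, another acute phase gene, was at 2601, 2640, 7299 and 2702 CPM in 7d and at 5066, 4688 and 6002 CPM in 50d (adjusted p = 0.791).

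The genes of other liver cells named here did not pass either. Clec4f, a marker of Kupffer cells, was at 175, 150, 241 and 173 CPM in 7d and at 199, 125 and 186 CPM in 50d (log2 fold change -0.12 ± 0.20, adjusted p = 0.905). Col1a1, a fibrillar collagen, was at 43.7, 17.3, 75.3 and 144 CPM in 7d and at 113, 41.4 and 56.1 CPM in 50d, and Acta2, of contractile stellate cells and smooth muscle, at 2.27, 0.372, 4.13 and 3.98 CPM and 8.82, 4.85 and 9.38 CPM. Acta2 thus did not overlap between groups (log2 fold change 1.49 ± 0.57, adjusted p = 0.369), whereas Col1a1 did. Of 32 stellate and matrix genes 4 were higher and 1 lower at an unadjusted p under 0.05, against 4.94% and 4.85% of all genes. DESeq2 and voom called none. The summed stellate markers were at 31.5 to 102 CPM in 7d and 54.1 to 66.9 CPM in 50d.

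In all, 13 of the 60 genes were on any of 41 lists with 761 tested genes, 9 of them on the clock list, and 37 lists held no call. The list of female-biased liver genes had a median of -1.57 over 16 genes and that of male-biased genes one of -0.36. Neither held a call by edgeR or voom. At an unadjusted p under 0.05, 4 and 1 were lower (4.85% of all genes), and DESeq2 called 1 and 0 lower (0.831% of all genes).

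**Figure D5:**
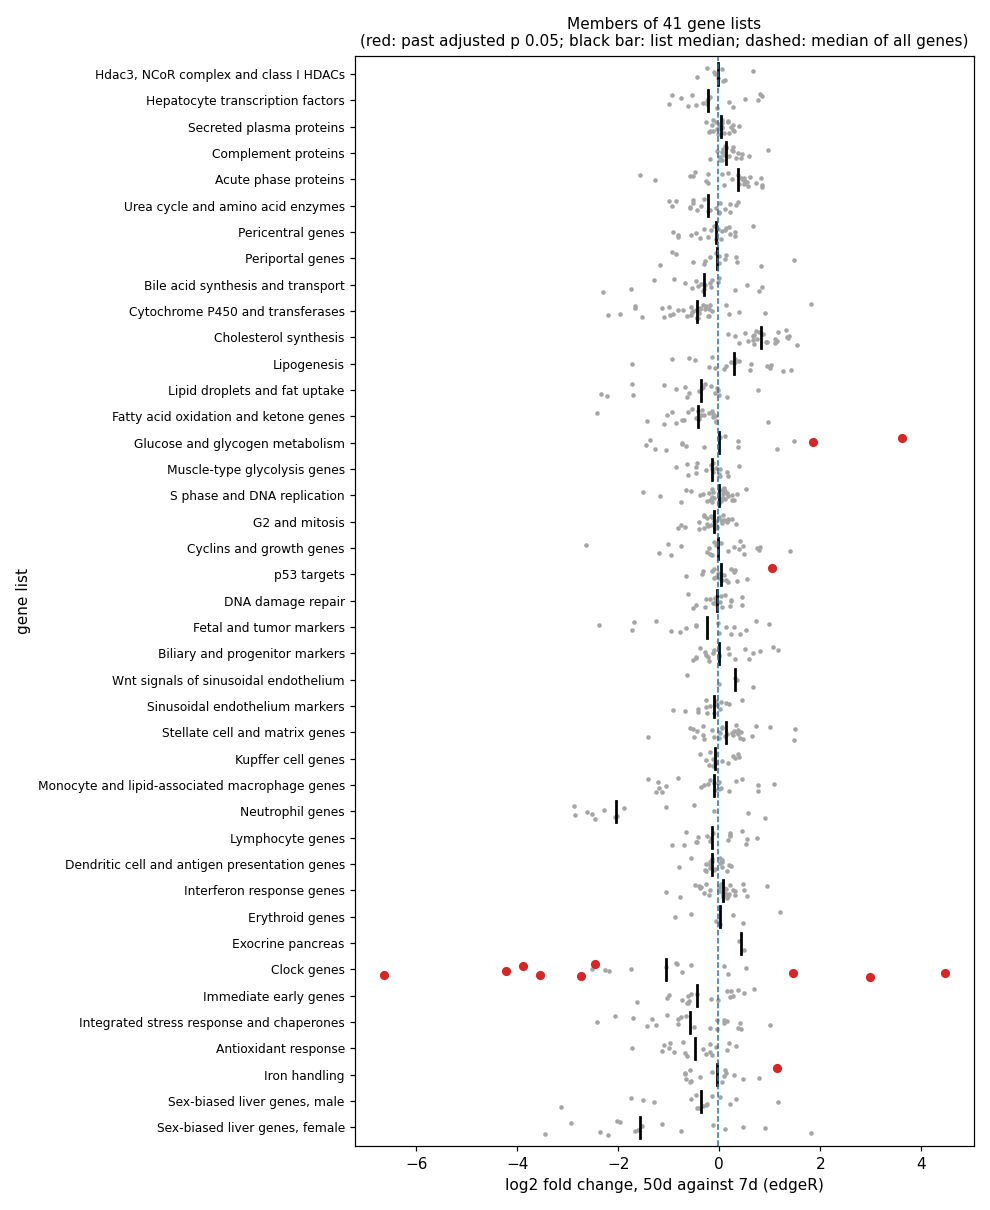
Log2 fold change of 50d against 7d for each tested member of 41 gene lists, 1 row per list. Red points passed an adjusted p of 0.05, grey points did not, the black bar is the list's median and the dashed line the median of all genes at -0.02; the red points stand mainly in the clock row, and the whole cholesterol synthesis row lies right of the dashed line.

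Some levels are uncertain for reasons of counting. The kit does not keep strand, and the spans of 19 of the 60 genes overlap another gene in the tables, among them Per3 with Uts2, Ciart with C920021L13Rik, Nrg4 with Fbxo22, Rfxank with Nr2c2ap, Pter with C1ql3 and Mybph with Adora1. Reads in the shared bases cannot be assigned to one gene from these files.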

How the data were processed

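RNA of 26 mouse liver libraries in 8 groups was sequenced after Trizol extraction and a TruSeq kit, per the labels' protocols. HISAT, Bowtie2 and the build mm10 are named in the submitters' processing notes, and no source used here names the counting tool. The authors deposited 1 table per library with an expected count per gene, an estimate of reads that need not be whole (21.1 to 21.8% were not), per the file headers. They also deposited FPKM per gene, per the file headers, by a formula that the labels do not state. A gene not listed was taken as 0, and counts were rounded.

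The 17 young libraries (wild type, 0d, 7d, 21d and 50d) were fitted together over 13617 genes left by filterByExpr. Libraries were scaled by TMM, and edgeR 4.0.16 gave a quasi-likelihood F-test (2-sided), whose p-values were adjusted over all genes by Benjamini-Hochberg, with a threshold of 0.05. Every adjusted p is from this test unless another tool is named, ± after a fold change is its SE, and CPM are counts scaled to a common library total and by TMM, except summed marker levels and Y-linked sums, which are unscaled. Levels that rest on a few reads have a wide counting error. Alternatives used DESeq2 1.42.0 and limma 3.58.1 (voom, and limma-trend on log2 of FPKM plus 1 or 0.1) in R 4.3.3. The edgeR fit of the 17 libraries was tested on simulated data, and the alternatives were not. Genes were matched by Entrez ID to GRCm38.p6, the same assembly as mm10.

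The libraries compared, the 795 genes on 41 lists (8 in no table, 761 tested) and the rules were chosen with earlier results of these data known. Named genes were the 15 largest rises and 15 largest falls past the threshold whose groups did not overlap and whose higher group averaged 5 CPM or more. To these came up to 4 called members per list and direction and a set of liver marker genes, with others said to be singled out. List members that did not pass are examples chosen after their values were seen. The text gives a part of the named genes. A few items are not reported here.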

Additional observations from a re-analysis of the deposited data

Results flagged for a closer look

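Among the 4 libraries of 7d, 1 library stood far from the other 3 in 7 of 88 genes named here. Chance alone sets 1 library apart in this way in about 1 of 20 groups, and the genes are not independent of one another. Replicate 3 was the high library in 5 of them. It held Saa1 at 13940 CPM against 1579 to 3234 CPM in the other 7d libraries, and Saa2, its near-identical copy, at 13080 CPM. Orm1 was at 7299 CPM in replicate 3 against 2601 to 2702 CPM. S100a8 was at 282 CPM against 14.5 to 50.8 CPM, and S100a9 at 571 CPM against 33.6 to 93.2 CPM. None of these 5 genes passed between 50d and 7d. Replicate 2 was the high library for Herpud1, at 786 CPM against 179 to 273 CPM, and for St3gal5, at 318 CPM against 125 to 152 CPM. Both fell at 50 days, and without 7d replicate 2 the adjusted p was 0.0739 for St3gal5.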

How the results depend on the processing

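Beside the 39 genes higher and 21 lower, DESeq2 gave 119 and 113 and voom 75 and 60. A fit to the 7 libraries gave 11 and 3, all 26 libraries 12 and 7, and an adjusted p of 0.01 left 15 and 6. Leaving out 1 library gave 15 to 47 higher and 3 to 31 lower. The fits differ in how many libraries inform the spread, and the counts did not rise steadily with that number. Without 7d replicate 1 the counts were 47 and 31, and without 7d replicate 3 they were 40 and 31. The cause of the changes in count was not tested for any fit. DESeq2's size factors, library totals, no filter, at least 5 CPM in 3 libraries, a 2-fold minimum and both FPKM scales kept both counts within 1.5 times. Of the 60 genes, DESeq2 also called 59, voom 52, the 7-library fit 11 and the fit of all 26 libraries 19.

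Of 88 genes named, 38 passed, and none changed direction past the threshold under any alternative. The fit to the 7 libraries lost 28 of the 38, among them Nfil3, Dbp and Tef (adjusted p = 0.0538 each) and Per1 (0.0919), and that of all 26 libraries lost 21, among them Dbp (0.0651). With voom, Npas2 (0.0537), Ciart (0.0524), Chrna4 (0.172), Fst (0.0783) and Irs2 (0.323) did not pass. Arntl, Per3 and Asap2 passed in all 18 alternative fits.

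Deviations of equal replicate numbers correlated at 0.061, 0.187 and 0.118, and those of unequal numbers at -0.245 to 0.204. The labels do not say what equal numbers mean, and these values do not settle whether they mark pairs. With the replicate number as a block, 30 genes were higher and 15 lower, 39 of them among the 60.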
